A study of Mus musculus with 15 samples.

Results

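The 8 genes for the auxiliary subunits of voltage-gated calcium channels were examined in sorted mouse islet cells. They were taken by gene symbol from a table of 38283 genes, and all 8 were found: Cacna2d1, Cacna2d2, Cacna2d3 and Cacna2d4 for the alpha2delta subunits, and Cacnb1, Cacnb2, Cacnb3 and Cacnb4 for the beta subunits. RNA had been sequenced from 5 samples of alpha cells, 4 of beta cells and 6 of delta cells, to ask which transcripts set the 3 cell types apart. Alpha and beta cells came from Glu-Venus mice, in which the Venus fluorophore is driven by the proglucagon promoter. Alpha cells were the Venus-positive cells, and beta cells were gated among the Venus-negative cells by scatter and autofluorescence. Delta cells came from Sst-CreXROSA26EYFP/EYFP mice, in which Cre under the somatostatin promoter switches on EYFP. All mice were on the C57BL/6 strain, none had been given a treatment according to the labels, and the labels give no age. Each sample pooled the islets of several mice. Differences were therefore tested against the spread between pools, and for delta cells the cell type and the mouse line cannot be told apart. Whether an alpha and a beta sample came from the same pool is not stated, and samples were treated as unpaired.

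Voltage-gated calcium channels open on depolarisation, and in islet cells the calcium that enters triggers the release of hormone. The pore is formed by an alpha1 subunit. A cytoplasmic beta subunit binds the pore subunit of the high-voltage-activated channels, helps to bring it to the membrane and changes its gating, while an extracellular alpha2delta subunit raises the number of channels at the surface. The alpha2delta-1 and alpha2delta-2 subunits also bind the gabapentinoid drugs. Low-voltage-activated (T-type) channels can conduct without either subunit.

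Levels were given as FPKM, which divides the fragments of a gene by transcript length and by sequencing depth, so that levels of different genes can be set side by side. Tests were run with limma, a linear model with moderated variances, on log2(FPKM + 1), over the 14405 genes with a mean above 1 FPKM in at least 1 cell type, and a call is a Benjamini-Hochberg adjusted p under 0.05. Differences on this scale understate the fold of genes with low levels. In such bulk samples, fewer cells of a type that carries a transcript and less RNA per cell cannot be told apart. The hormone genes followed the labels, with mean levels of 273000 FPKM for Gcg in alpha, 295000 for Ins2 in beta and 163000 for Sst in delta samples. Other hormones were present too: Ins2 was at 2630 to 9090 FPKM in alpha and 3800 to 7190 in delta samples, Sst was at 1140 to 2430 FPKM in the alpha samples, and Ppy, the pancreatic polypeptide gene, was at 17700 to 41400 in alpha, 16.9 to 98.1 in beta and 10900 to 48600 in delta samples. Of 8 acinar markers, 1 (Cela1, an elastase) was higher in delta cells than in each other cell type by the test, and the summed acinar FPKM was 0.122 to 71.9 in alpha, 0.0283 to 13.7 in beta and 20.2 to 517 in delta samples. Of 5 ductal markers, Sox9 was higher in delta samples (0.112 to 2.33 FPKM) than in any other sample (at most 0.0131), as was Muc1 (0.621 to 1.4 against at most 0.49), which was too low to test. Krt19 was listed at 0 in all delta samples against up to 4.27 FPKM in alpha and 0.645 in beta samples (F-test adjusted p = 0.0638, limma), and the list summed to 6.83 to 15.2 FPKM in alpha, 2.81 to 16.2 in beta and 9.62 to 20.9 in delta samples. Of 6 mesenchymal markers, Col1a2 was higher in alpha samples (0.848 to 3.79 FPKM) than in the others (at most 0.0576), and Col1a1 and Pdgfra were listed at 0 in all. Endothelial markers summed to at most 1.1 FPKM in any sample. In 6 samples (alpha 1, 2 and 3, beta 2, and delta 1 and 2) the ribosomal protein genes summed to above 50000 FPKM. Differences within these and the other 9 samples are given for calls over all samples that they change. They are also given for some, but not all, of the other differences. The 6 hold 1 beta sample, whose spread was taken to be like that of the other groups. The table gives no read totals, and the depth could be read from the steps of low values in 5 samples only (7.5 M to 30.4 M reads).

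The genes with higher levels in delta than in beta cells were spread over different chromosomes. By the GENCODE M21 models on GRCm38, Cacna2d2 lies at chr9:107399612-107529343 on the + strand, Cacna2d3 at chr14:28904943-29721864 on the - strand, Cacnb1 at chr11:98001508-98023034 on the - strand and Cacnb3 at chr15:98630840-98644529 on the + strand. The other members lie at chr5:15934691-16374511 (Cacna2d1, +), chr6:119236526-119352407 (Cacna2d4, +), chr2:14603088-14987908 (Cacnb2, +) and chr2:52428320-52676831 (Cacnb4, -). RefSeq start sites (GRCm38.p6) were matched for 7 of the 8 genes, all but Cacna2d4, with 12 starts in all. The 250 bases before each start were searched on both strands for TATAAA (the TATA box), CCAAT (the letters bound by NF-Y), GGGCGG (a GC box, bound by SP factors), TAATTA (a core bound by homeodomain factors) and TGACGTCA (the cAMP response element). The sequences given here are of 3 of the 4 genes that were called higher in delta than in beta cells. They are shown so that the regions before their RefSeq starts can be compared. The windows of Cacnb1 and Cacnb3 lie inside the span of the GENCODE gene, and only that of Cacna2d3 lies outside it. That call is what the 4 share, since Cacnb3 was about as high in alpha as in delta cells. They run 5′ to 3′ on the strand of the gene, and capitals mark matches to those motifs or their reverse complements. The window of Cacna2d2 lies wholly inside the first exon of the GENCODE model and is not printed, and for Cacnb1 the 7 bases nearest the start, which are in an exon, were left out. The window of Cacnb3 start 2 is printed whole, and 51 of its bases lie in an exon of a GENCODE model of that gene. Cacnb3 has an upstream and a downstream RefSeq start, shown as start 1 and start 2.
Cacna2d3, chr14:29721865-29722114, - strand: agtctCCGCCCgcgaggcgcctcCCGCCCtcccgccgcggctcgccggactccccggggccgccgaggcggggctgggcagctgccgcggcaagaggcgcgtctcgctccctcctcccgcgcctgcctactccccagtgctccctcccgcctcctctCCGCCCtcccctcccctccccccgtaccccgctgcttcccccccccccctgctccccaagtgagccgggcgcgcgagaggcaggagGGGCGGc
Cacnb1, chr11:98022635-98022877, - strand: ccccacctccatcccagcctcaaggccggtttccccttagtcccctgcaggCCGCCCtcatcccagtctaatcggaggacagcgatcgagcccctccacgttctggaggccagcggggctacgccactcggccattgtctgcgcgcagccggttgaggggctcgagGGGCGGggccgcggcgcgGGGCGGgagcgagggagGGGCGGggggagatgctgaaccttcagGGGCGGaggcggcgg
Cacnb3 start 1, chr15:98632078-98632327, + strand: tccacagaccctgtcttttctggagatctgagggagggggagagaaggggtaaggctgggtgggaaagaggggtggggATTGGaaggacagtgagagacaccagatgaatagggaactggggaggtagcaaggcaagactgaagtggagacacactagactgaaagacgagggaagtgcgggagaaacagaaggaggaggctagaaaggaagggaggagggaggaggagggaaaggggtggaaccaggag
Cacnb3 start 2, chr15:98634517-98634766, + strand: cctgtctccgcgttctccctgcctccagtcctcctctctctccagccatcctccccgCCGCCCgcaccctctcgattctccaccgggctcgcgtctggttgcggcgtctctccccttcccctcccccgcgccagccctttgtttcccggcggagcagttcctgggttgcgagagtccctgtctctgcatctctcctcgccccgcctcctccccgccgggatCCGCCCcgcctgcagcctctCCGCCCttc

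The windows of Cacna2d3, Cacnb1 and Cacnb3 start 2 were rich in CpG, with 30, 26 and 23 of them in the full 250 bases. For Cacnb1 this count includes the 7 bases that are not printed. The median was 6 over 32851 mouse promoter windows of the same length. The windows of Cacna2d3, Cacnb1 and Cacnb3 start 2 held 4, 5 and 3 matches to GGGCGG. Start 1 of Cacnb3 had 2 CpG, no GGGCGG and 1 CCAAT. The feature was not particular to the genes higher in delta cells: GGGCGG was found in 7 of the 12 windows, 1 for each of the 7 genes, including Cacna2d1, Cacnb2 and Cacnb4, and in 32.7% of all windows. CCAAT was found in 2 of the 12 (33.8% of all windows). TATAAA (12.4%), TAATTA (4.84%) and TGACGTCA (1.55%) were in none of the 12. These matches describe letters in a window and not binding.

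Of the 8 genes, 7 passed the filter on low levels. Cacna2d2 and Cacna2d3 passed through delta cells alone, Cacnb4 through beta cells alone, and Cacna2d4 did not pass. An F-test over the 3 cell types called 4 of the 7: Cacna2d2 (adjusted p = 9.3e-05), Cacnb3 (adjusted p = 0.0124), Cacnb1 (adjusted p = 0.0163) and Cacna2d3 (adjusted p = 0.0215, limma). The same test called 16% of all genes tested. With all 38283 genes in the test it again called 4 of the 8, a count for which no share over all genes is given here.

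**Figure D1:**
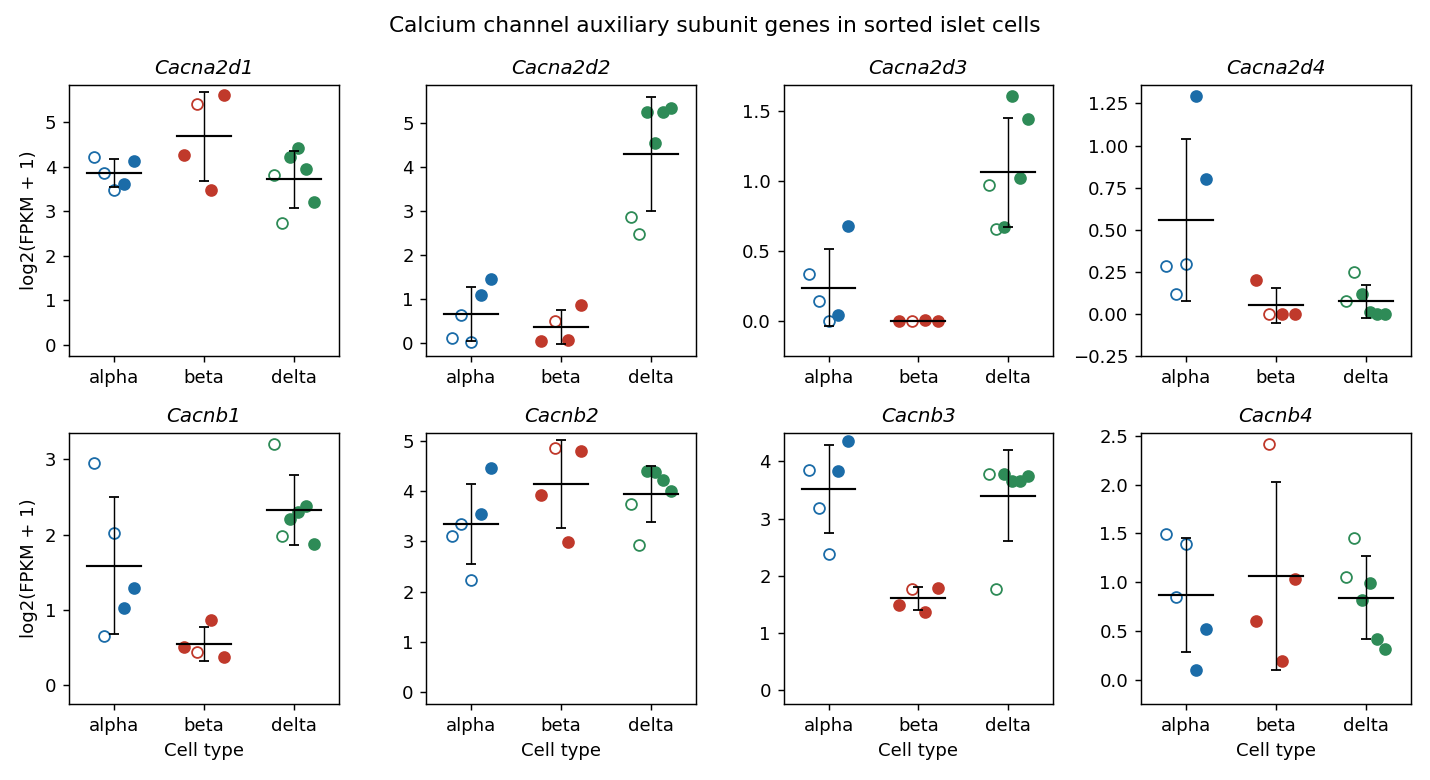
Levels of the 8 auxiliary subunit genes in each sample on the log2(FPKM + 1) scale (y axis, scaled for each gene) by cell type (x axis). Points are samples, open where ribosomal protein genes summed to above 50000 FPKM; long bars are means and error bars SDs (n = 5 alpha, 4 beta, 6 delta). Cacna2d2 in the 6 delta samples (4.54 to 39.3 FPKM) lies above every alpha and beta sample, and Cacnb3 is low in all 4 beta samples.

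Cacna2d1, which encodes alpha2delta-1, was the main alpha2delta transcript of alpha and beta cells. It was at 17.5, 13.5, 10.2, 11.2 and 16.5 FPKM in the 5 alpha samples. In the 4 beta samples it was at 18.2, 41, 10.1 and 47.7 FPKM. In the delta samples it ran from 5.61 to 20.3 with a median of 13.7 FPKM. Beta samples 2 and 4 stood above every other sample, but the 3 groups overlapped. Mean levels were 29.3 ± 18 FPKM for beta (SD, n = 4), 13.8 ± 3.21 for alpha (n = 5) and 13.2 ± 5.53 for delta cells (n = 6). No difference passed the test. Beta against alpha cells gave a log2 difference of 0.83 (95% interval -0.15 to 1.81, adjusted p = 0.304), and delta against beta cells gave -0.97 (-1.91 to -0.02, adjusted p = 0.165, limma). Both depended on the scaling: with median-ratio size factors they were 1.07 (adjusted p = 0.0429) and -1.36 (adjusted p = 0.0076), and delta against beta cells was also called with quantile normalization (-1.11, adjusted p = 0.0238) and without beta sample 3 (-1.37, adjusted p = 0.0404). Within the 9 samples of low ribosomal protein level and the other 6, beta against alpha cells gave 0.58 and 1.54, and delta against beta cells -0.51 and -2.12, none of them past the threshold. Alpha and delta cells, the neighbours in the order of levels, differed by -0.14 (-1.02 to 0.74, adjusted p = 0.926).

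Cacna2d2, which encodes alpha2delta-2, was high in delta cells and near 0 elsewhere. It was at 0.0944, 0.559, 0.025, 1.13 and 1.75 FPKM in the alpha samples. In the beta samples it was at 0.0432, 0.415, 0.0533 and 0.827 FPKM. In delta samples 1 to 6 it was at 6.22, 4.54, 36.9, 22.1, 37 and 39.3 FPKM. The lowest delta sample was above the highest alpha or beta sample, so that the delta group overlapped with neither. Mean levels were 24.3 ± 15.9 FPKM for delta (SD, n = 6), 0.711 ± 0.73 for alpha (n = 5) and 0.335 ± 0.371 for beta cells (n = 4), and the ratio of means was 34.2 to alpha and 72.7 to beta cells. On the log2(FPKM + 1) scale the difference was 3.61 (SE 0.524, adjusted p = 0.000264) from alpha and 3.9 (SE 0.558, adjusted p = 0.000186, limma) from beta cells. Alpha and beta cells differed by -0.29 (95% interval -1.52 to 0.94, adjusted p = 0.815).

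The 2 delta samples of high ribosomal protein level were the 2 lowest in Cacna2d2, with a mean of 5.38 FPKM against 33.8 FPKM in the other 4. In alpha cells the corresponding means were 0.226 and 1.44 FPKM. Within the 9 samples of low ribosomal protein level, delta cells were higher by 3.81 than alpha cells (adjusted p = 0.000926) and by 4.75 than beta cells (adjusted p = 0.000136). Within the other 6, the differences were 2.39 (adjusted p = 0.0471) and 2.16 (adjusted p = 0.0575). Both differences held on leaving out each sample in turn, at 3.4 to 3.97 and 3.69 to 4.26. Cela1 was also higher in delta cells, at 17.9 to 95.2 FPKM against at most 10.2 in the other samples, and the part of acinar transcripts was not tested. Of the ductal markers, Sox9 and Muc1 were also at their highest in delta samples and Krt19 was listed at 0 there, and their part was not tested.

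Cacna2d3, which encodes alpha2delta-3, was low in every cell type. It was at 0.26, 0.103, 0, 0.0315 and 0.601 FPKM in the alpha samples. It was listed at 0 in 3 of the 4 beta samples and at 0.00422 FPKM in the other. In delta samples it ran from 0.576 to 2.04 with a median of 0.993 FPKM. All delta samples were above all beta samples, while alpha sample 5 fell within the delta range. Delta cells were higher than beta cells by 1.06 on the log2 scale (SE 0.273, adjusted p = 0.0153, limma), by 1.18 within the 9 samples of low ribosomal protein level (adjusted p = 0.0144) and by 0.81 within the other 6 (adjusted p = 0.116). The difference from alpha cells, 0.82 (95% interval 0.28 to 1.37), missed the threshold (adjusted p = 0.0712) and passed it in 12 of 26 alternative analyses, among them those without alpha sample 5 (0.93, adjusted p = 0.0195), without delta sample 2 (0.9, adjusted p = 0.0284) without delta sample 3 (0.9, adjusted p = 0.0272), without delta sample 5 (0.83, adjusted p = 0.0499) and without any 1 of the 4 beta samples (0.82, adjusted p from 0.0358 to 0.0472). Beta and alpha cells differed by -0.24 (-0.84 to 0.36, adjusted p = 0.658).

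Cacna2d4, which encodes alpha2delta-4 and is known best from retina, was at 0.22, 0.0865, 0.229, 1.45 and 0.741 FPKM in the alpha samples. It was at 0.152 FPKM in beta sample 1 and listed at 0 in the other 3, and ran from 0 to 0.19 FPKM in delta samples. The 2 highest samples were alpha samples 4 and 5, and the groups overlapped. Its mean was below 1 FPKM in each cell type and it was not tested in the main analysis. With a filter at 0.1 FPKM, beta cells differed from alpha cells by -0.51 (adjusted p = 0.15) and delta cells by -0.48 (adjusted p = 0.143, limma). The leucine-rich repeat transmembrane gene Lrtm2 lies inside Cacna2d4 on the opposite strand and shares no exon bases with it. Lrtm2 was at 0.513 to 3.51 FPKM in alpha samples, listed at 0 in all beta samples and at most at 0.109 FPKM in delta samples.

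Each gene's share of the alpha2delta transcripts was computed in each sample. Cacna2d1 made up 90.9 ± 7.66% of the summed FPKM of the 4 genes in alpha cells and 98.9 ± 0.469% in beta cells, but 39.5 ± 17.5% in delta cells (SD). Cacna2d2 made up 4.36 ± 4.1%, 0.866 ± 0.641% and 56.6 ± 19%. In each alpha and beta sample Cacna2d1 was the larger, with a ratio of Cacna2d2 to Cacna2d1 of at most 0.106. In delta samples the ratio ran from 0.474 to 4.79 with a median of 1.6, and Cacna2d1 was the larger in delta samples 1 and 2. The sum of the 4 genes was 15.2 ± 3.65 FPKM in alpha, 29.6 ± 18.3 in beta and 38.7 ± 18.5 in delta cells.

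**Figure D2:**
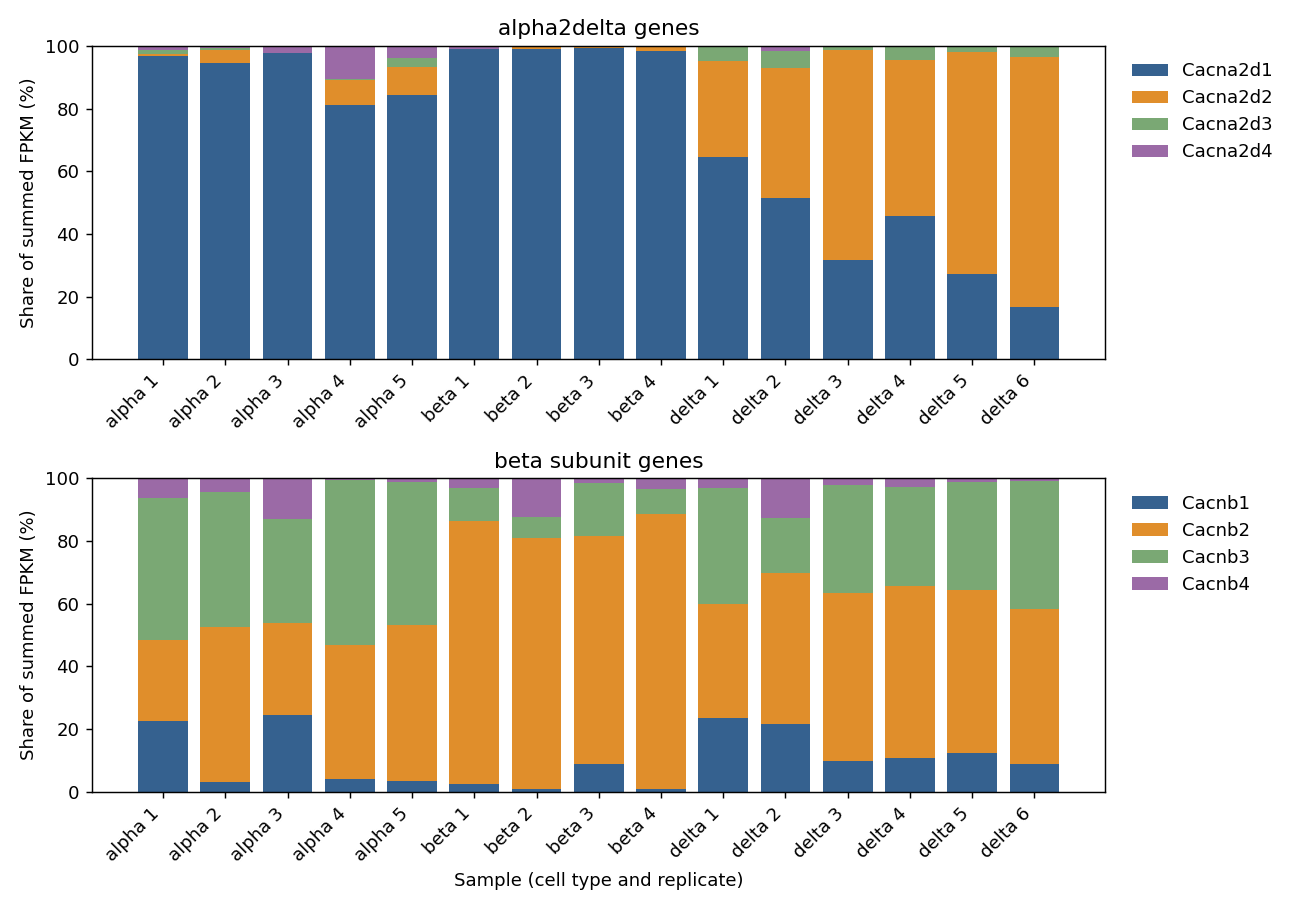
Share of each gene in the summed FPKM of the 4 alpha2delta genes (upper panel) and of the 4 beta subunit genes (lower panel), in percent (y axis), for each sample (x axis). Cacna2d2 takes 30.6 to 79.8% in the 6 delta samples and at most 8.94% in the others. Cacnb2 takes 72.9 to 87.6% in the 4 beta samples and 25.7 to 54.7% in alpha and delta samples.

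Among the beta subunits, Cacnb2 was present in all 3 cell types with no difference past the threshold. The gene encodes the beta2 subunit, which is also the main beta subunit of heart muscle. It was at 7.62, 9.23, 3.72, 10.7 and 21.1 FPKM in the alpha samples. In the beta samples it was at 14.3, 28.1, 6.92 and 26.8 FPKM, and in delta samples it ran from 6.57 to 20.1 with a median of 16.3. The groups overlapped widely. Means were 10.5 ± 6.48, 19 ± 10.2 and 15.3 ± 5.16 FPKM in alpha, beta and delta cells. The differences were 0.80 for beta against alpha (95% interval -0.24 to 1.84, adjusted p = 0.35), 0.60 for delta against alpha (-0.33 to 1.54, adjusted p = 0.57) and -0.20 for delta against beta cells (-1.2 to 0.8, adjusted p = 0.828, limma). Within the 9 samples of low ribosomal protein level and the other 6, beta against alpha cells gave -0.1 and 1.96, and delta against beta cells 0.35 and -1.52, none past the threshold. The intervals over all samples leave room for a change of over 2-fold between beta and alpha cells. The sources used here do not say that reads were counted by strand. Of the exon bases of Cacnb2, 618 overlap the antisense pseudogene Gm10849 (at most 4.19 FPKM) and 239 the antisense gene Gm13269 (at most 5.31 FPKM). The levels of these genes are therefore uncertain.

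Cacnb3, which encodes the beta3 subunit, was low in beta cells. It was at 13.5, 8.07, 4.19, 13.2 and 19.4 FPKM in the alpha samples. In the beta samples it was at 1.81, 2.39, 1.59 and 2.46 FPKM, and in delta samples it ran from 2.41 to 12.8 with a median of 12.1. No alpha sample overlapped with a beta sample. Delta sample 2, at 2.41, lay within the beta range, and the other 5 delta samples were at 11.6 to 12.8. Mean levels were 11.7 ± 5.8 FPKM for alpha (SD, n = 5), 2.07 ± 0.429 for beta (n = 4) and 10.6 ± 4.07 for delta cells (n = 6). Relative to beta cells, alpha cells were 5.65-fold and delta cells 5.15-fold higher by the ratio of means. Beta against alpha cells gave a log2 difference of -1.91 (SE 0.46, adjusted p = 0.0185) and delta against beta cells gave 1.80 (SE 0.443, adjusted p = 0.0118, limma). Delta and alpha cells differed by -0.12 (95% interval -1 to 0.77, adjusted p = 0.945).

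The call for beta against alpha cells was lost without beta sample 1 (-1.88, adjusted p = 0.0526) and with no filter (-1.91, adjusted p = 0.0504). Within the 9 samples of low ribosomal protein level, Cacnb3 gave -2.54 for beta against alpha cells (adjusted p = 0.00133) and 2.16 for delta against beta cells (adjusted p = 0.000775). Within the other 6 it gave -1.38 (adjusted p = 0.552) and 1.02 (adjusted p = 0.686). Ppy had the same order as Cacnb3, with beta samples far below the alpha and delta samples, and its part was not tested.

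Cacnb1, which encodes the beta1 subunit of skeletal muscle and neurones, was lowest in beta cells. It was at 6.72, 0.57, 3.08, 1.04 and 1.44 FPKM in the alpha samples. In the beta samples it was at 0.421, 0.357, 0.827 and 0.298 FPKM, and in delta samples it ran from 2.69 to 8.24 with a median of 3.78. All delta samples were above all beta samples, and the alpha samples spread across both ranges. Of the exon bases of Cacnb1, 80 overlap Gm11629 on the opposite strand (at most 3.06 FPKM), so reads of that stretch cannot be told apart without strand. Delta cells had a mean of 4.28 ± 2.02 FPKM against 0.476 ± 0.239 in beta cells, a ratio of 9, and a log2 difference of 1.78 (SE 0.401, adjusted p = 0.00687, limma). It was 1.61 within the 9 samples of low ribosomal protein level (adjusted p = 0.00235) and 2.16 within the other 6, where it missed the threshold (adjusted p = 0.377). For alpha cells, at 2.57 ± 2.51 FPKM, neither difference passed the threshold, although the first interval does not include 0: beta against alpha cells gave -1.04 (95% interval -1.93 to -0.16, adjusted p = 0.144) and delta against alpha cells 0.74 (-0.06 to 1.54, adjusted p = 0.352).

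Cacnb4, which encodes the beta4 subunit of brain channels, was low and showed no difference past the threshold. It was at 1.81, 0.799, 1.62, 0.0747 and 0.43 FPKM in the alpha samples. In the beta samples it was at 0.524, 4.33, 0.147 and 1.04 FPKM, and in delta samples it ran from 0.245 to 1.73 with a median of 0.876. The groups overlapped, and the F-test gave an adjusted p of 0.911. The highest sample, beta 2, is the beta sample of high ribosomal protein level. In each cell type the mean was higher in the samples of that set, at 1.41 against 0.252 FPKM in alpha, 4.33 (1 sample) against 0.571 in beta and 1.41 against 0.583 in delta cells. The gene shares 1433 exon bases with A430018G15Rik on the opposite strand (at most 7.34 FPKM), so reads of the pair cannot be told apart without strand.

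Shares of the beta subunits were computed in the same way. Cacnb2 made up 81.1 ± 6.25% of their summed FPKM in beta cells (SD), 39.4 ± 11.2% in alpha cells and 49 ± 6.8% in delta cells. Cacnb3 made up 10.6 ± 4.44% in beta, 44.1 ± 7.05% in alpha and 32.7 ± 8.01% in delta cells. The ratio of Cacnb3 to Cacnb2 was 0.0852 to 0.23 in beta samples, 0.366 to 1.02 in delta samples and 0.875 to 1.77 in alpha samples. The sums of the 4 genes, 25.7 ± 11.3 FPKM in alpha, 23.1 ± 11.9 in beta and 31.1 ± 8.84 in delta cells, were within the spread between samples of each other.

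Compared one pair of cell types at a time, 4 of the 7 tested members were at a higher level in delta than in beta cells (Cacna2d2, Cacna2d3, Cacnb1 and Cacnb3) and none was lower, where 11.7% of all tested genes were higher and 2.99% lower. In delta against alpha cells, 1 member (Cacna2d2) was higher and none lower (5.33% and 1.48% of all genes). In beta against alpha cells, 1 member (Cacnb3) was lower and none higher (4.82% and 2.84% of all genes). The groups did not overlap for 3 members higher in delta than in beta cells (12.3% of all genes), for 1 higher in delta cells than in alpha cells (4.97%) and for 1 lower in beta cells compared with alpha (5.07%). The median log2 difference of the 7 genes was 1.06 in delta against beta cells, beside 0.30 over all genes. It was 0.60 in delta against alpha cells, beside 0.13, and -0.24 in beta against alpha cells, beside -0.13. These counts and medians are a description, since Cacna2d2 and Cacna2d3 passed the filter through their delta level and Cacna2d4 did not pass. With no filter, 4 of the 8 members were called in delta against beta cells, beside 1712 of 38283 genes. Over all 8 members and with no filter, the medians were 0.54, 0.29 and -0.27, beside 0 over all 38283 genes in each. With median-ratio size factors the medians over all genes moved to 0.02, 0 and 0, and the 4, 1 and 1 calls named here kept their directions. Of the genes called in delta against beta cells, 79.6% were higher, a share that fell to 51.5% with size factors and 50.9% with quantile normalization, and under both another member, Cacna2d1, was called lower. For delta against alpha cells the share was 78.3%, 67.8% and 56.8%, and for beta against alpha cells 37%, 52.7% and 47.6%. Each cell type entered 2 comparisons, so the 3 counts share samples.

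**Figure D3:**
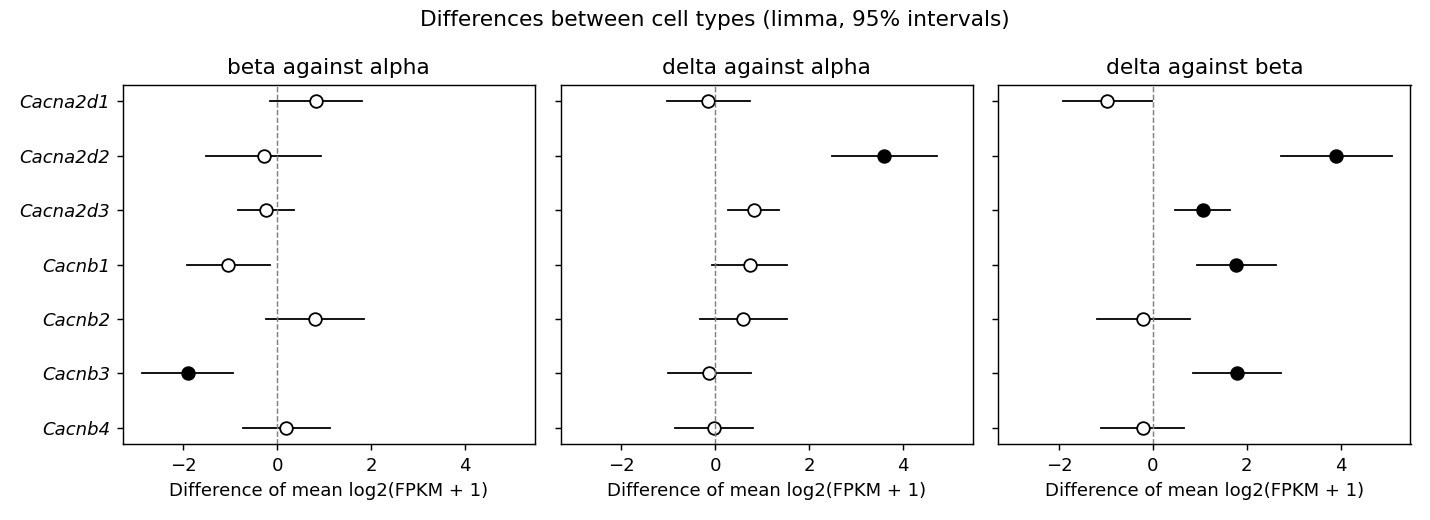
Difference of mean log2(FPKM + 1) between cell types (x axis) for the 7 tested members (y axis), with 95% intervals from limma; a filled point has an adjusted p under 0.05. Cacna2d2 is the largest difference in both comparisons with delta cells (3.61 and 3.9), and the calls for delta against beta cells are all on the higher side.

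Genes whose levels followed those of the called members most closely were listed over the 15 samples, as a description that shares cell type and ribosomal protein level among its points. Dscam (a neuronal adhesion molecule), Clmn and 4930539E08Rik each had a Pearson r of 0.98 with Cacna2d2 on the log2 scale. Their mean levels in delta cells were 4.36, 1.9 and 8.28 FPKM, against at most 0.196 FPKM in the other cell types. Fjx1 (r = 0.94), Rab11fip4 (0.94) and Spint1 (0.92) were closest to Cacna2d3. Mfge8 (r = 0.87), Prr16 (0.86) and Ass1 (0.86) were closest to Cacnb1. Irs2, an insulin receptor substrate (r = 0.96), Cx3cl1, a chemokine (0.94), and Ptprk, a receptor phosphatase (0.94), were closest to Cacnb3, and each was lower in beta cells (0.819, 0.639 and 0.0582 FPKM) than in alpha (3.74, 7.45 and 5.93 FPKM) and delta cells (3.41, 8.79 and 5.82 FPKM).

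The other genes of the channel complex and its regulators comprised 36 genes: pore and gamma subunits, the small GTPases of the RGK family that bind beta subunits, and partners of the pore, beta and alpha2delta subunits. Of these, 15 were tested, and 6 were called by the F-test. In delta against beta cells 5 were higher and none lower, in delta against alpha cells 2 were higher and none lower, and in beta against alpha cells 2 were higher and 3 lower. Cacna1h and Rims1 passed the filter through delta cells alone, so these counts are a description. The shares over all tested genes were those given for the members: 16% for the F-test, 11.7% higher and 2.99% lower, 5.33% and 1.48%, and 2.84% and 4.82%.

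Cacna1a (a P/Q-type pore subunit), Cacna1c and Cacna1d (L-type pore subunits) showed no difference past the threshold. Their mean levels were 6.93, 1.57 and 3.53 FPKM for alpha, 5.69, 1.49 and 5.9 for beta and 7.74, 1.73 and 3.59 for delta cells. Cacna1b, the N-type pore subunit, was at 0.193 to 0.87 FPKM in alpha samples, 0.42 to 8.57 in beta samples and 1.23 to 3.23 in delta samples. Its difference of 1.44 between beta and alpha cells (adjusted p = 0.049, limma) passed the threshold narrowly. The call was lost in 21 of 26 alternatives, among them each fit that left out a sample, except the one without beta sample 3. With that sample left out the difference was 1.95 (adjusted p = 0.00191). It was 0.79 within the 9 samples of low ribosomal protein level (adjusted p = 0.397) and 2.84 within the other 6 (adjusted p = 0.0565).

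Cacna1h, a T-type pore subunit, had the delta pattern of Cacna2d2. It was at 17.7, 11.3, 25.3, 15.1, 25.8 and 22.8 FPKM in delta samples 1 to 6. It was at most at 0.352 FPKM in the alpha samples and at 0.106 FPKM in the beta samples. The delta group was far above both, by 4.11 on the log2 scale from alpha cells (SE 0.251, adjusted p = 5.06e-08) and 4.26 from beta cells (SE 0.267, adjusted p = 7.65e-08, limma), and both calls held in 27 of 27 alternatives. Its mean was 14.5 FPKM in delta samples 1 and 2 and 22.2 FPKM in the other 4.

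Of the RGK proteins, which lower calcium current, Rem2 had the order of Cacnb1, with the lowest level in beta and the highest in delta cells. It was at 1.66, 2.04, 2.18, 2.05 and 1.1 FPKM in the alpha samples and at 0.292, 0.481, 0 and 0.0439 in the beta samples. In delta samples it was at 1.97 to 5.39 FPKM. Beta samples were below all others, with differences of -1.22 from alpha cells (SE 0.276, adjusted p = 0.0125) and 1.91 for delta against beta cells (SE 0.266, adjusted p = 0.000147, limma). Both held within the 9 samples of low ribosomal protein level (-1.2, adjusted p = 0.0217, and 2.04, adjusted p = 0.000756) and missed the threshold within the other 6 (-1, adjusted p = 0.375, and 1.56, adjusted p = 0.214). Gem was lowest in alpha cells, with 0 to 0.216 FPKM in alpha, 0.636 to 5.1 in beta and 0.377 to 3 in delta samples. All alpha samples were below all others. Beta cells were higher than alpha cells by 1.55 (SE 0.383, adjusted p = 0.0218), and delta cells differed from alpha cells by 1.14 (adjusted p = 0.0625, limma), which passed the threshold in 8 of 26 alternatives. The call for beta against alpha cells was lost in 5 of 26 alternatives, among them without beta sample 4 (1.46, adjusted p = 0.0608), within the 9 samples (1.31, adjusted p = 0.0941) and within the 6 (2.47, adjusted p = 0.0596).

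Cbarp, which encodes a protein that binds beta subunits and lowers channel activity and which the table lists under the older symbol Dos, had the highest mean of the list in delta and alpha cells, while in beta cells that of the prion protein gene Prnp was higher (61 against 36.7 FPKM). Cbarp was at 17.9 to 162 FPKM in alpha samples, 25.5 to 48.1 in beta samples and 136 to 453 in delta samples. All delta samples were above all beta samples, with a difference of 2.72 (SE 0.615, adjusted p = 0.00699). It was 2.99 within the 9 samples of low ribosomal protein level (adjusted p = 0.00325) and 2.1 within the other 6 (adjusted p = 0.121). Against alpha cells it was 2.22 (SE 0.576, adjusted p = 0.0257, limma), but alpha samples 4 and 5, at 145 and 162 FPKM, lay within the delta range. That call was lost in 12 of 27 alternatives, among them the 9 samples of low ribosomal protein level (0.82, adjusted p = 0.527).

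Lrp1, an endocytic receptor that binds alpha2delta, was at 2.49 to 12.2 FPKM in alpha, 0.105 to 2.76 in beta and 1.93 to 17.5 in delta samples. Delta cells exceeded beta cells by 2.43 (SE 0.53, adjusted p = 0.00554). This rested on the 9 samples of low ribosomal protein level (3.37, adjusted p = 0.000549), while within the other 6 the difference was 0.18 (adjusted p = 1). The difference of beta from alpha cells was -1.93 (adjusted p = 0.0422, limma), -2.42 within the 9 samples (adjusted p = 0.00879) and -0.77 within the 6 (adjusted p = 0.755), and the call was lost in 17 of 27 alternatives. Thbs3, a thrombospondin, gave 2.18 for delta against beta cells (adjusted p = 0.0394), 2.42 within the 9 samples (adjusted p = 0.00652) and 1.78 within the 6 (adjusted p = 0.695), and the call was lost in 19 of 27 alternatives. For Cacng4, a gamma subunit, delta against beta cells gave 1.34 (adjusted p = 0.0598, limma), and 1.16 within the 9 samples, where it was called (adjusted p = 0.0107, limma). Cacng4 was at 0.14 to 0.367 FPKM in beta samples against 0.97 to 8.1 in alpha samples, a difference of -1.72 (adjusted p = 0.0359, limma). It was -2.8 within the 9 samples (adjusted p = 0.00112) and -1.08 within the 6 (adjusted p = 0.492), and the call was lost in 14 of 26 alternatives.

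**Figure D4:**
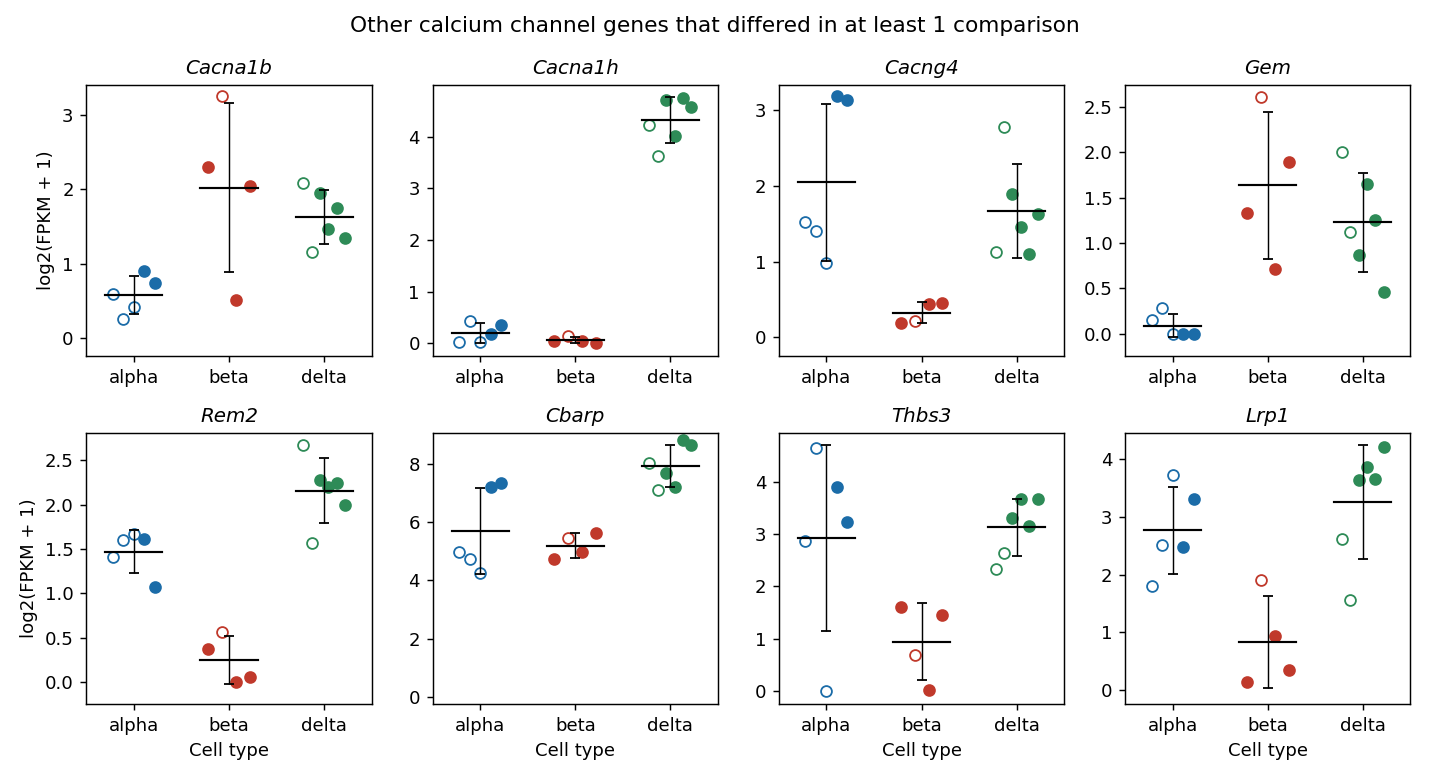
Levels of the 8 other calcium channel genes called in at least 1 comparison, in each sample on the log2(FPKM + 1) scale (y axis, scaled for each gene) by cell type (x axis), drawn as for the auxiliary subunits: open points are samples with a ribosomal protein sum above 50000 FPKM, bars are means ± SD. Cacna1h is separate in all 6 delta samples (11.3 to 25.8 FPKM), and Rem2 is lowest in the 4 beta samples.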

How the data were processed

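The RNA of sorted alpha (n = 5), beta (n = 4) and delta cells (n = 6) had been amplified and sequenced as single reads. The authors demultiplexed with CASAVA, aligned to GRCm38 with TopHat (TopHat2 2.0.8 by the submitters' processing notes; the methods give another version) and deposited the FPKM that Cufflinks 2.2.1 gave for each gene. The annotation release is not given in the sources used here. The authors' edgeR comparison used raw counts, which were not used here, so limma 3.58.1 in R 4.3.3 (lmFit, eBayes with trend) was run on log2(FPKM + 1) with a mean per cell type and no covariate. Genes with a mean above 1 FPKM in at least 1 cell type were tested (14405), and p-values were adjusted over all of them. Coordinates came from GENCODE M21 (36341 of 38283 identifiers matched), and sequences from RefSeq. Python 3.11.15, numpy 2.4.6, pandas 2.3.3 and matplotlib 3.10.9 were used.

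The members, lists, ribosomal protein limit and alternatives were chosen with earlier results of these data known. The genes named are the 8 members, the other channel genes called in any comparison, the 3 genes with the highest r to each member called by the F-test, the hormone genes, and markers that bear on a result. Beside the 8 acinar markers counted, 1 further acinar gene is not reported here. Of the channel genes called in none, Cacna1a, Cacna1c, Cacna1d and Prnp, and of genes inside a member Lrtm2, were named after their values were seen. Alternatives were other filters, a pseudocount of 0.1, other scalings, fits of 2 cell types or of a set of samples, the replicate number as a block, and leaving out each sample in turn.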

Additional observations from a re-analysis of the deposited data

Results flagged for a closer look

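Of the 24 groups of samples of the members (8 genes in 3 cell types), 4 held a sample whose distance from the others passed Dixon's 95% limit, where chance gives about 1 in 20 groups (1.2 of 24). Cacnb3 in delta sample 2 was at 2.41 FPKM, far below the other delta samples. Cacnb1 in delta sample 1 was at 8.24 FPKM, above the other delta samples. Cacna2d3 in beta sample 3 was at 0.00422 FPKM and Cacna2d4 in beta sample 1 at 0.152 FPKM, each the one beta sample not listed at 0. With the other 3 values listed at 0, any value above 0 passes the limit, so these 2 add nothing to the count.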

How the results depend on the processing

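The values deposited are FPKM without read totals, so the counting error of the low genes (Cacna2d3, Cacna2d4, Cacnb4) is unknown. Over the 21 differences of the 7 tested members, 504 alternative values kept direction and side of the threshold, 16 passed it newly, 13 lost it and 25 changed sign, and 27 alternatives were run, 15 of which left out 1 sample. Causes of the changes below were not tested. Whether same-numbered alpha and beta samples came from the same sort is not stated. Delta samples came from another mouse line and cannot share mice with them. Over 13 same-numbered pairs, those with delta samples included, the correlation of deviations was -0.152 to 0.281, with 5 over 0.1. Of 15 samples, 3 correlated best with their own number. The alpha and beta pairs gave -0.0395, 0.271, -0.152 and 0.0731, and are too few to settle whether samples were paired. With a replicate block over all 15 samples, members called were 1, 1 and 4 in beta against alpha, delta against alpha and delta against beta cells, as without it; it called 1227, 831 and 2001 of all 14405 genes (1104, 981 and 2114 without a block), and 2 other channel genes in beta against alpha cells. With a replicate block over replicates 1 to 4 of only the cell types compared, which also has fewer samples, members called were 0 in each comparison and other channel genes 0, 1 and 2, beside 0, 214 and 706 of all genes. There the differences of the members called otherwise were 3.3 and 3.4 for Cacna2d2, 0.97 for Cacna2d3, 1.88 for Cacnb1, and -1.7 and 1.64 for Cacnb3. In beta against alpha cells, members called were 0 with no filter, 2 with size factors and 0 in the 6 samples of high ribosomal protein level; in delta against alpha cells they were 2 with no filter, with a filter at 0.1, with a pseudocount of 0.1 and with only those cell types fitted; in delta against beta cells they were 2 with a filter at 5 and 0 in those 6 samples. The F-test called 2 members and 3 other genes with a filter at 5. It called 3 members with the replicate block over all 15 samples and with quantile normalization, and 5 with size factors, beside 4 in the main fit. The shares of all genes that it called in these other fits are not given here. Other genes called in beta against alpha cells were 1 with no filter, 2 with a filter at 0.1, 1 with a filter at 5, 2 with only those cell types and 0 in the 6 samples; in delta against alpha cells 5 with a filter at 0.1 and 1 in the 6 samples; in delta against beta cells 8 with a filter at 0.1, 8 in the 9 samples of low ribosomal protein level and 1 in the 6. Leaving out 1 sample gave 0 to 1 members in beta against alpha and 1 to 2 in delta against alpha cells, and 1 to 4 other genes in each. For comparison, over all genes beta against alpha cells gave 743 calls of 38283 genes with no filter, 1032 of 19804 with a filter at 0.1, 831 of 9184 with a filter at 5, 2078 of 14405 with size factors, 520 with only those cell types, 561 in the 6 samples and 698 to 1743 on leaving out 1. Delta against alpha cells gave 926 with no filter, 1105 with a filter at 0.1, 1056 with a pseudocount of 0.1, 1096 with only those cell types, 227 in the 6 and 849 to 1195 on leaving out 1. Delta against beta cells gave 2212 with a filter at 0.1, 1319 with a filter at 5, 3159 in the 9 and 651 in the 6 (24% of them higher in delta cells). In the 6 samples the shares in delta cells were 57.9% for Cacna2d1, 36.1% for Cacna2d2, 22.7% for Cacnb1 and 42.1% for Cacnb2, and Cacnb4 was 12.3% in beta cells; in the 9 samples Cacna2d1 was 82.7% and Cacna2d2 8.55% in alpha cells.

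Signs changed only for differences that were not called over all samples. In delta against alpha cells, Cacna2d1 was 0 with the block over replicates 1 to 4, 0.07 in the 9 samples and -0.28 to 0.06 on leaving out 1 sample; Cacnb4 was 0.09 with a pseudocount of 0.1, 0.08 and 0.12 with the blocks, 0.24 with the set as covariate, 0.33 in the 9 samples, 0.01 in the 6 and -0.22 to 0.13 on leaving out 1; Cacnb3 was -0.4 to 0.21 on leaving out 1; Cacng4 was 0.04 with the block over replicates 1 to 4, 0.65 in the 6 and -1.64 in the 9, where it was called (adjusted p = 0.0106); Thbs3 was -0.03 with the covariate, -0.11 in the 9, -0.02 in the 6 and -0.53 to 0.63 on leaving out 1; and Lrp1 was -0.59 in the 6. In beta against alpha cells, Cacna2d2 was 0.23 in the 6, Cacnb2 -0.1 in the 9, Cbarp 0.81 in the 6 and -2.16 in the 9, where it was called (adjusted p = 0.0385), and Cacnb4 -0.26 to 0.48 on leaving out 1. In delta against beta cells, Cacnb2 was 0.35 in the 9 and -0.58 to 0.04 on leaving out 1, Cacnb4 0.02 with the block over replicates 1 to 4, 0.02 in the 9 and -0.51 to 0.23 on leaving out 1, and Cacna1b 0.02 in the 9 and -0.91 to 0.01 on leaving out 1.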
